A study of Mus musculus with 35 samples.

Results

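ISG15 conjugation was followed through the transcripts of 5 genes in myeloid-derived suppressor cells (MDSC) and in tumor tissue. The genes are Isg15, Uba7, Ube2l6, Herc6 and Usp18. They were selected by symbol, as the rows of the deposited count table whose Ensembl identifier maps to them, and are 5 of the 53379 genes counted. All 5 passed the filter on low counts in every comparison.

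ISG15 is a ubiquitin-like protein that cells make in response to interferon and attach to other proteins. Attachment runs through the activating enzyme (E1) encoded by Uba7, the conjugating enzyme (E2) encoded by Ube2l6 and a HERC ligase (E3), which in the mouse is encoded by Herc6. Usp18 encodes the protease that removes ISG15 again and that also restrains signalling at the interferon receptor subunit IFNAR2. The genes are textbook interferon-stimulated genes, and ISG15 is also secreted by myeloid cells.

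Libraries came from female C57BL/6 mice that carried T110299 tumors in the pancreas. T110299 is a single cell line from a mouse with Ptf1a-Cre and LSL-Trp53fl/R172H among its alleles, a pancreatic cancer model in which Cre acts in pancreatic cells, so every tumor stems from that line. Treated mice received 50 µg poly(I:C) complexed with polyethylenimine (poly(I:C)-PEI, N/P ratio 6) intravenously on days 18 and 20 after tumor induction, and control mice are labelled untreated. The study describes the controls of these libraries as untreated, while its general methods name glucose as the control. Poly(I:C) is a synthetic RNA duplex sensed by the cytosolic receptor MDA5. CD11b+ cells were sorted as Ly6CloLy6G+ PMN-MDSC (granulocytic) and Ly6ChiLy6G- M-MDSC (monocytic) from spleen and tumor, and whole tumor (bulk tumor) was taken from untreated mice. There were 4 libraries for each group, except 3 for treated PMN-MDSC from spleen. One of the 4 for treated M-MDSC from tumor held 10 counts and was left out, leaving 3. MDSC libraries held 793070 to 4357105 counts and bulk tumor libraries 3771590 to 8886115. The 8 mice gave cells to several groups, but the column names carry no mouse numbers, and libraries were not paired by mouse.

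The labels were checked against marker genes. Ly6g was 34.5 to 84.7 CPM (each count relative to the total of its library) in untreated and 226 to 335 CPM in treated PMN-MDSC from spleen, against at most 4.73 CPM in M-MDSC from spleen. It was only 0 to 9.19 CPM in untreated PMN-MDSC from tumor. There the sum of the 10 neutrophil markers (1476 to 4552 CPM) lay above that of untreated M-MDSC from tumor (226 to 710 CPM). It overlapped that of untreated M-MDSC from spleen (3164 to 7513 CPM) and lay below that of untreated PMN-MDSC from spleen (18987 to 32445 CPM). In untreated PMN-MDSC from tumor, the 8 monocyte markers summed to 4475 to 8825 CPM and the 9 macrophage markers to 3250 to 4273 CPM. Untreated M-MDSC from tumor held 1695 to 2403 CPM of macrophage markers. The untreated PMN-MDSC libraries from tumor thus went partly against their granulocytic label. Ly6c2, the transcript of the sorting marker Ly6C, moved with treatment. It was 40.6 to 99.3 CPM in untreated and 584 to 995 CPM in treated PMN-MDSC from spleen, which were sorted as Ly6Clo, against 119 to 202 and 785 to 1014 CPM in M-MDSC from spleen, and it was 1.90 to 11.2 against 67.5 to 245 CPM in PMN-MDSC from tumor. One treated M-MDSC library from tumor went against its label in Ly6c2. It was the deepest MDSC library (4357105 counts), with 2.98 CPM of Ly6c2, against 443 and 622 CPM in the other treated M-MDSC libraries from tumor and 40.3 to 147 CPM in the untreated ones. Its macrophage marker sum (9112 CPM) and T cell marker sum (137 CPM) were the highest of the 3. Its monocyte marker sum (2779 CPM) was the lowest of the 3 but near that of another (3040.5 CPM). Its neutrophil marker sum (255 CPM) was also the lowest of the 3. It is called the low-Ly6c2 library, and edgeR comparisons that use it are given with and without it.

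The 5 genes lie on 4 chromosomes of GRCm38 (GENCODE M21). Isg15 is at chr4:156199424-156200818 on the minus strand with 756 exonic bases, Uba7 at chr9:107975505-107984060 (plus, 6692 bases), Ube2l6 at chr2:84798828-84810335 (plus, 1996 bases), Herc6 at chr6:57581000-57664632 (plus, 9292 bases) and Usp18 at chr6:121245906-121270917 (plus, 2790 bases). All are annotated as protein-coding. Exons of Herc6 share 688 bases with the overlapping transcript Gm45193 (same strand, 0 counts in every library), so reads from that stretch may have been left uncounted. The overlapping genes Gm20661 (Uba7) and Gm44148 (Usp18) held at most 2 and 7 counts in any library. A processed pseudogene, AC151275.1, matches Isg15 with at least 95% identity over 482 bases and was not among the counted genes, so reads that align equally well to both could have been lost from Isg15.

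RefSeq promoter windows on GRCm38.p6 (250 bases before to 50 after the annotated start) were found for 4 of the 5 genes. The Isg15 and Uba7 windows are printed because they carry interferon-type motifs, and the Ube2l6 window because it carries none although the change of Ube2l6 in PMN-MDSC was close to that of Isg15. Capitals mark the core of the interferon-stimulated response element (ISRE core: GAAA, any 2 bases, GAAA) and AANNGAAA, the interferon regulatory factor half-site contained in it, each searched on both strands. Each sequence runs 5′ to 3′ in the direction of the gene.
Isg15 (chr4:156200769-156201068, minus strand): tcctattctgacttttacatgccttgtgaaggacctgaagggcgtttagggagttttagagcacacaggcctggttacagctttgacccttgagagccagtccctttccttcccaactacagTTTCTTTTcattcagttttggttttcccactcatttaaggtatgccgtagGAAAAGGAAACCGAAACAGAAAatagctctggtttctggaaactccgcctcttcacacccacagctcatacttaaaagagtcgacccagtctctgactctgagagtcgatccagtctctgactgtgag
Uba7 (chr9:107975317-107975616, plus strand): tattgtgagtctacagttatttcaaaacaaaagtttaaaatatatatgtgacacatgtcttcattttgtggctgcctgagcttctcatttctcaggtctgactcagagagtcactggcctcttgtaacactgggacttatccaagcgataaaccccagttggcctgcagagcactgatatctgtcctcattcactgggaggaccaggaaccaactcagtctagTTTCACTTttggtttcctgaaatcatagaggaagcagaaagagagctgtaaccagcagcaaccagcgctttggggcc
Ube2l6 (chr2:84798578-84798877, plus strand): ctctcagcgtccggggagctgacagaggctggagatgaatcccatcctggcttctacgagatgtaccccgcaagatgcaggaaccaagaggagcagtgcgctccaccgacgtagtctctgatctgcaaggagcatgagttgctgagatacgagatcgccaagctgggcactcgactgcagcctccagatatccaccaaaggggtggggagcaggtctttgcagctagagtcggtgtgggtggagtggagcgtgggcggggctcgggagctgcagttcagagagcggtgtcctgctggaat

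The Isg15 window held 3 overlapping ISRE core matches, whose first bases lie at -78, -72 and -66 from the start, and 1 more AANNGAAA match on the other strand at -128. Uba7 held 1 AANNGAAA match on the other strand at -27 and no ISRE core. The Ube2l6 and Herc6 windows held neither, and none of the 4 held TTCNNNGAA, the gamma-activated site. The ISRE core occurs in 3.44% of the 32851 promoter windows of the table, AANNGAAA in 23.9% and TTCNNNGAA in 8.30%. Of 20 other interferon-stimulated genes, 15 had a window and 8 of them held the ISRE core. These matches describe the letters of this window only.

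Transcripts of all 5 genes were higher in treated than in untreated mice in every MDSC population, and the difference passed the test in 3 of the 4 populations. Differences are log2 fold changes ± SE from edgeR's quasi-likelihood test on TMM-scaled counts, called at a Benjamini-Hochberg adjusted p under 0.05 over all genes tested in the comparison.

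**Figure D1:**
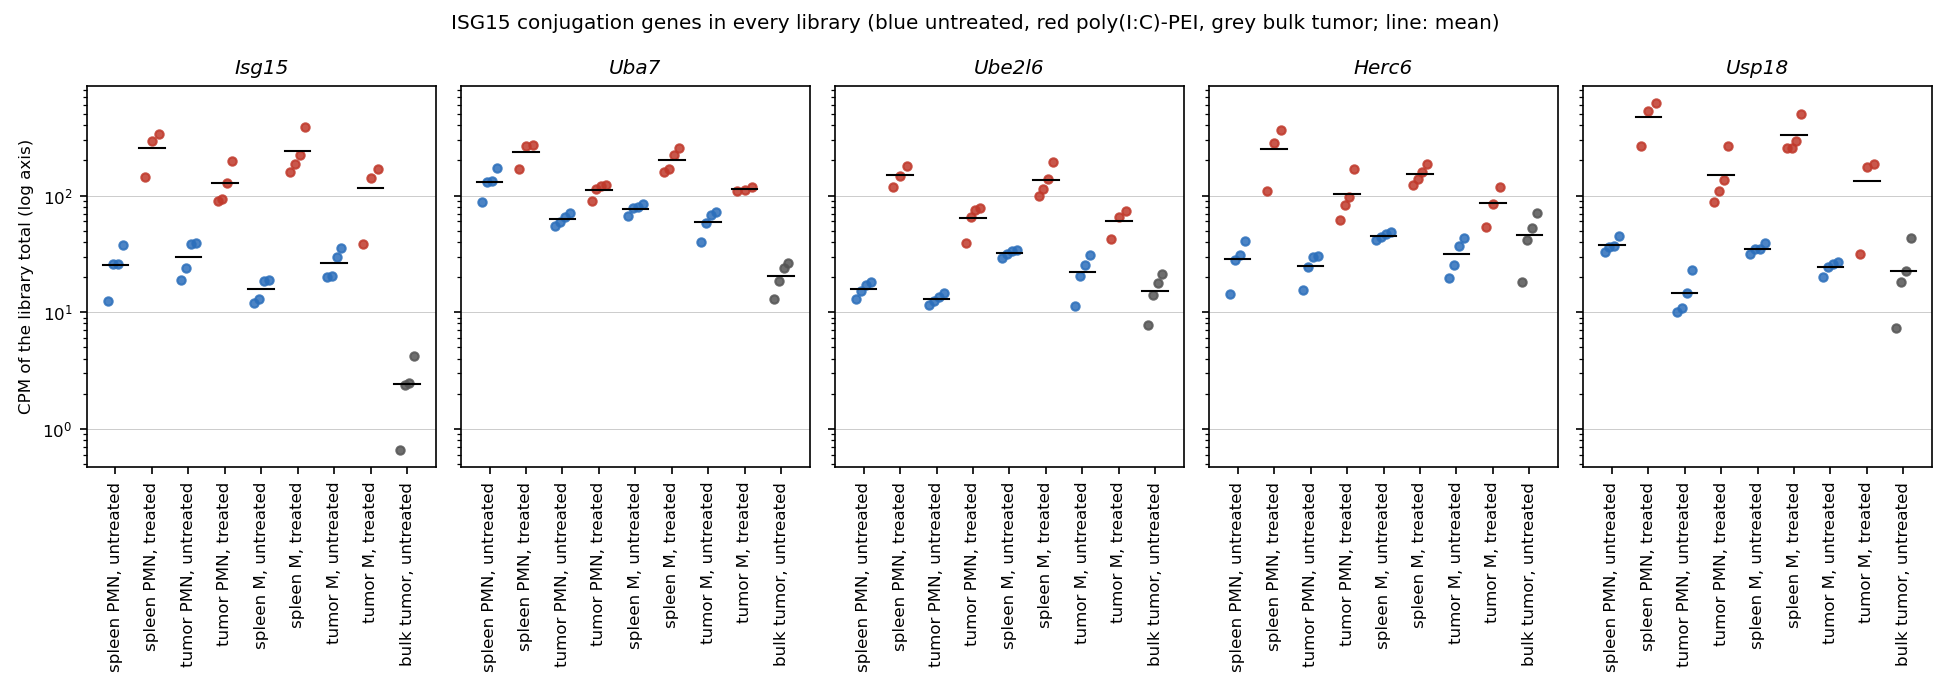
CPM of the library total (log axis) of each gene in every library of the 9 groups; points are libraries and lines are group means. Treated libraries (red) sit above the untreated ones (blue) of the same population for each gene except Uba7 in spleen PMN-MDSC, and Isg15 is lowest in bulk tumor (grey, 0.661 to 4.24 CPM).

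Isg15, the modifier itself, was 12.5, 26.01, 26.08 and 37.4 CPM in the untreated and 145, 291 and 334 CPM in the treated PMN-MDSC libraries from spleen. M-MDSC from spleen held 12.002, 13.1, 18.6 and 18.99 CPM without treatment and 160, 187, 221 and 387 CPM with it. The groups did not overlap in either population, and Isg15 rose 12.4-fold in PMN-MDSC (log2 3.63 ± 0.44, adjusted p = 0.00307) and 16.3-fold in M-MDSC (4.02 ± 0.33, adjusted p = 7.64e-05). PMN-MDSC from tumor held 18.8, 23.8, 38.4 and 38.9 CPM untreated and 90.3, 93.9, 129 and 198 CPM treated, a 4.23-fold rise without overlap (2.08 ± 0.34, adjusted p = 0.00763). In tumor M-MDSC the values were 20.2, 20.5, 29.7 and 35.2 CPM untreated and 38.1, 142 and 167 CPM treated. The 38.1 CPM belong to the low-Ly6c2 library and lie just above the highest untreated one. The difference was 4.08-fold (2.03 ± 0.47) with an adjusted p of 0.056, and 5.52-fold (2.46 ± 0.25, adjusted p = 0.0017) without that library, which leaves 2 treated libraries.

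Uba7, the E1 enzyme, had the smallest differences and, in MDSC, the highest untreated CPM of the 5. In PMN-MDSC from spleen it was 87.3, 131, 132 and 172 CPM untreated and 168, 265 and 273 CPM treated, so that 1 untreated library lay above the lowest treated one. It rose 2.19-fold (1.13 ± 0.30, adjusted p = 0.0433). This call was lost without any single library other than the untreated one at 172 CPM and the treated one at 168 CPM (adjusted p 0.0881 to 0.155). M-MDSC from spleen held 66.4, 78.1, 79.9 and 84.5 CPM untreated and 158, 168, 223 and 255 CPM treated, a clear separation and a 2.74-fold rise (1.46 ± 0.18, adjusted p = 0.000665). In PMN-MDSC from tumor, 55.2, 59.6, 65.9 and 70.7 CPM stood against 89.9, 115, 120 and 124 CPM, a 1.75-fold rise (0.81 ± 0.16, adjusted p = 0.0231). That call was lost without any 1 of the 4 untreated libraries or without the treated one at 124 CPM (adjusted p 0.0591 to 0.0821). Tumor M-MDSC held 40.3, 58.0, 67.6 and 72.1 CPM untreated and 110, 112 and 119 CPM treated (0.83 ± 0.21, adjusted p = 0.0615). Here the low-Ly6c2 library was close to the others at 110 CPM, and the adjusted p without it was 0.066.

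Ube2l6 encodes the E2 enzyme that receives ISG15 from the E1. Untreated PMN-MDSC from spleen held 12.9, 15.1, 17.2 and 18.3 CPM and treated ones 119, 147 and 181 CPM. It rose 11.5-fold, and its SE was the smallest of the 5 genes in this population (3.52 ± 0.21, adjusted p = 0.000436). In M-MDSC from spleen the untreated level was higher, at 28.97, 31.6, 33.3 and 33.9 CPM, and the treated level was 98.2, 113, 138 and 193 CPM, a 4.47-fold rise (2.16 ± 0.21, adjusted p = 0.000193). PMN-MDSC from tumor went from 11.5, 12.4, 13.5 and 14.7 CPM to 39.2, 64.9, 75.6 and 78.8 CPM, which was 4.87-fold (2.28 ± 0.26, adjusted p = 0.000858). None of these groups overlapped. Tumor M-MDSC held 11.3, 20.3, 25.6 and 30.8 CPM untreated and 42.5, 66.0 and 73.7 CPM treated (2.53-fold, 1.34 ± 0.32, adjusted p = 0.0568). Without the low-Ly6c2 library (42.5 CPM) the adjusted p was 0.0243.

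Herc6 encodes the ligase. Values of 14.4, 27.9, 31.2 and 40.9 CPM in untreated PMN-MDSC from spleen stood against 110, 283 and 366 CPM in treated ones, an 11.005-fold rise (3.46 ± 0.45, adjusted p = 0.00368). M-MDSC from spleen held 41.4, 44.5, 46.4 and 48.3 CPM untreated and 124, 138, 159 and 185 CPM treated, a 3.53-fold rise (1.82 ± 0.14, adjusted p = 5.1e-05). Neither population overlapped between treatments. PMN-MDSC from tumor held 15.6, 24.2, 29.7 and 30.3 CPM untreated and 62.0, 82.6, 96.9 and 170 CPM treated. The 4.15-fold rise (2.05 ± 0.37, adjusted p = 0.0129) missed the threshold without the untreated library at 15.6 CPM (adjusted p = 0.0521). For tumor M-MDSC, 19.7, 25.2, 37.1 and 43.4 CPM stood against 54.2, 85.1 and 119 CPM (2.57-fold, 1.36 ± 0.35, adjusted p = 0.0681), and the adjusted p was 0.0243 without the library at 54.2 CPM, the low-Ly6c2 one.

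Usp18, the deconjugating protease, had the largest difference of the 5 genes in PMN-MDSC from both sites and in tumor M-MDSC. Untreated PMN-MDSC from spleen held 32.6, 35.9, 37.2 and 45.4 CPM and treated ones 266, 530 and 617 CPM, a 15.4-fold rise (3.94 ± 0.32, adjusted p = 0.00118). M-MDSC from spleen went from 31.6, 34.5, 34.8 and 38.9 CPM to 256, 257, 293 and 504 CPM (9.87-fold, 3.30 ± 0.25, adjusted p = 4.06e-05). The treated M-MDSC library at 504 CPM was also the highest of its group for Isg15, Uba7 and Ube2l6 but the lowest for Herc6. PMN-MDSC from tumor started lower, at 9.99, 10.8, 14.7 and 23.05 CPM, and reached 88.5, 110, 135 and 265 CPM (10.4-fold, 3.38 ± 0.44, adjusted p = 0.00236). Tumor M-MDSC held 20.2, 24.4, 25.8 and 26.96 CPM untreated and 31.7, 177 and 188 CPM treated (5.04-fold, 2.33 ± 0.53, adjusted p = 0.0541). The low-Ly6c2 library, at 31.7 CPM, was closer to the untreated libraries than to the other treated ones. Without it the difference was 2.81 ± 0.18 on the log2 scale (adjusted p = 0.000127).

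**Figure D2:**
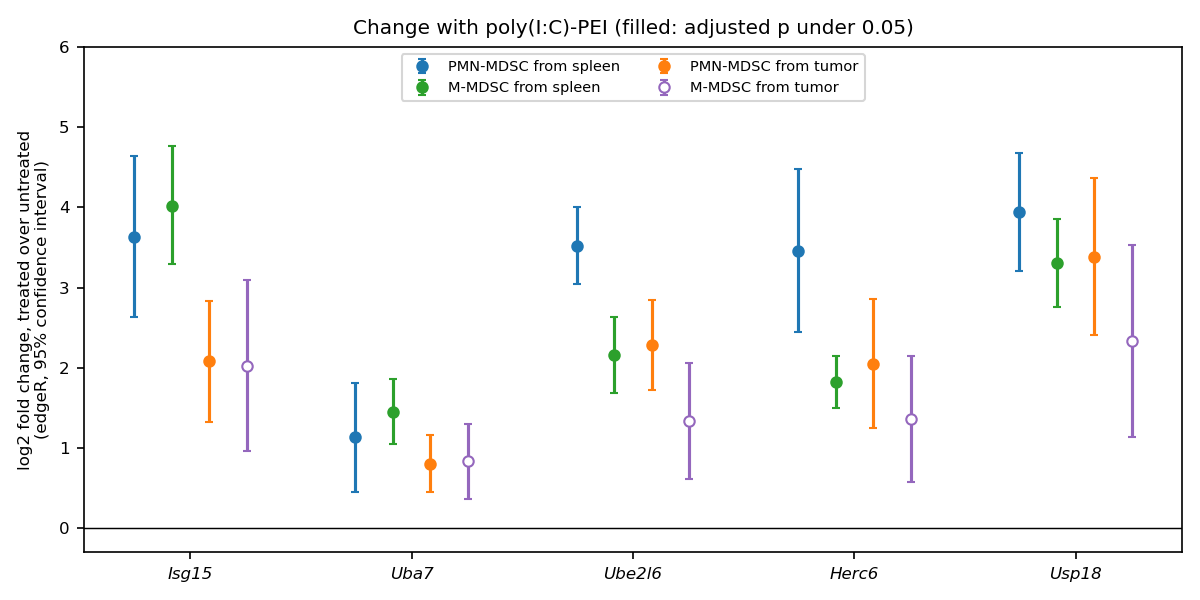
Log2 fold change of treated over untreated libraries for each gene and population, with 95% confidence intervals from edgeR; filled points have an adjusted p under 0.05. All 20 points lie above 0, from 0.81 (Uba7, PMN-MDSC from tumor) to 4.02 (Isg15, M-MDSC from spleen), and the 5 open points are those of M-MDSC from tumor.

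Counted over the genes, 5 of 5 were called higher in treated PMN-MDSC from spleen, where 6.10% of all genes tested were, and 4 of 5 had treated libraries above all untreated ones, against 6.25% of all genes. In M-MDSC from spleen 5 of 5 were called (10.7% of all genes) and 5 of 5 did not overlap (10.4%). In PMN-MDSC from tumor the counts were 5 of 5 called (2.29%) and 5 of 5 not overlapping (7.64%). In M-MDSC from tumor 0 of 5 were called by edgeR (1.82%), although all 5 had an unadjusted p under 0.05 (19.2% of all genes did) and 5 of 5 did not overlap (12.8%). DESeq2, a fit without the filter on low counts, a fit over all libraries and a fit on library totals each called 5 of 5 there, where they called 9.53%, 4.10%, 8.11% and 3.70% of all genes in either direction, against 2.88% in the main edgeR fit. Without the low-Ly6c2 library edgeR called 4 of 5, where 4.58% of all genes were called in either direction. The study's thresholds (adjusted p under 0.001, at least 2-fold) were also applied to the edgeR values, whereas the study used them with DESeq2. Ube2l6 alone was then called in PMN-MDSC from spleen (0.0413% of all genes called higher) and from tumor (0.241%). All 5 were called in M-MDSC from spleen (1.82%) and none in M-MDSC from tumor (0.0120%). Without the low-Ly6c2 library, Usp18 alone passed them in M-MDSC from tumor (7.025-fold, edgeR adjusted p = 0.000127), with no share of all genes given. Scaling by library totals in place of TMM lowers the median difference of all genes by 0.31 on the log2 scale in PMN-MDSC from spleen, and Uba7 then had an adjusted p of 0.0646.

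Other transcripts moved with treatment too. The sum of the 8 monocyte markers was 9160 to 12641 CPM in untreated and 2779 to 5132 CPM in treated M-MDSC from tumor, and 6313 to 9155 against 3170 to 4600 CPM in M-MDSC from spleen. The 6 erythroid markers summed to 59.6 to 178 CPM in untreated and 0.36 to 4.48 CPM in treated PMN-MDSC from spleen, where Hba-a1 was at 0. The 9 macrophage markers there were 377 to 1251 CPM against 51.1 to 108 CPM. In M-MDSC from spleen the erythroid markers were 28.3 to 60.5 CPM untreated and 1.01 to 3.20 CPM treated, and the 4 endothelial markers 24.8 to 34.8 against 129 to 293 CPM. In PMN-MDSC from tumor the monocyte markers were 4475 to 8825 CPM untreated and 1379 to 3149 CPM treated, the neutrophil markers 1476 to 4552 against 4146 to 11186 CPM, and Ly6g 0 to 9.19 against 5.02 to 76.2 CPM. Markers of epithelial tumor cells (6 genes) were 126 to 762 CPM in untreated and 68.9 to 191 CPM in treated PMN-MDSC from tumor, with Cldn4 at 0 in both. The 8 dendritic cell markers summed to 26.4 to 76.1 CPM in untreated and 1.44 to 4.46 CPM in treated PMN-MDSC from spleen, to 22.8 to 39.4 against 2.58 to 13.7 CPM in PMN-MDSC from tumor and to 18.9 to 36.3 against 4.63 to 11.02 CPM in M-MDSC from tumor. The 5 T cell markers were 9.96 to 17.02 against 1.08 to 3.71 CPM in PMN-MDSC from spleen. Of 12 marker lists, 7 had lower sums in every treated than in every untreated library of spleen PMN-MDSC (those for B, endothelial and acinar cells besides the 4 named), and 2 did in each other population. The endothelial sum was higher without overlap in both M-MDSC populations (74.6 to 157 against 20.2 to 42.5 CPM in tumor). In such bulk libraries of sorted cells, a change in the mixture of cells and a change in RNA per cell cannot be told apart, and the part of these markers in the ISG15 results was not tested.

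In the low-Ly6c2 library, 19 of 20 other interferon-stimulated genes were also at their lowest of the 3 treated M-MDSC libraries from tumor, while 17 of the 20 and all 5 ISG15 genes lay above every untreated library. In each of the other 2 libraries, 20 of 20 lay above. No share over all genes was computed for single libraries, so these counts only describe the libraries.

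The effect of treatment was compared between tumor and spleen with an interaction term. Estimates for all 5 genes were smaller in tumor. In PMN-MDSC they ran from -0.29 ± 0.35 (Uba7) to -1.52 ± 0.58 (Isg15) on the log2 scale, and 0 of 5 passed in edgeR (3.50% of all genes did), with 3 of 5 at an unadjusted p under 0.05 (16.5%). Ube2l6 came closest (-1.21 ± 0.32, 95% interval -1.90 to -0.52, adjusted p = 0.0519), and RLE size factors (0.0467, with 3.16% of all genes called), DESeq2 (0.0188, with 6.23%) or leaving out the treated spleen library at 119 CPM (0.0298) or the treated tumor library at 78.8 CPM (0.0208) took it past the threshold. In M-MDSC the estimates were -0.43 ± 0.38 (Herc6) to -1.98 ± 0.61 (Isg15), and 0 of 5 passed in edgeR (0.790%), with 2 of 5 at an unadjusted p under 0.05 (14.2%). DESeq2 called 1 of 5, Isg15, at an adjusted p of 0.0358, where it called 3.52% of all genes. Without the low-Ly6c2 library the estimates were -0.18 (Herc6) to -1.55 (Isg15, adjusted p = 0.194), and 0 of 5 passed (0.549% of all genes). Library totals move the median of all genes by 0.30 in the PMN-MDSC and 0.15 in the M-MDSC comparison.

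Between cell types, the E2 and the E3 differed in spleen. Ube2l6 rose 2.71-fold more in PMN-MDSC than in M-MDSC (interaction 1.44 ± 0.31, adjusted p = 0.0122) and Herc6 3.34-fold more (1.74 ± 0.48, adjusted p = 0.032). Isg15 (-0.28 ± 0.56), Uba7 (-0.23 ± 0.37) and Usp18 (0.73 ± 0.42) did not pass, so that 2 of 5 genes were called, beside 10.9% of all genes. The Ube2l6 call held in every fit that left out 1 library. The Herc6 call was lost in 11 of 15 of them (adjusted p 0.0512 to 0.0834) and on library totals, which move the median of all genes by -0.31 (Herc6 1.37, adjusted p = 0.064). In tumor 0 of 5 interactions passed in edgeR (0.0239% of all genes), with 1 of 5 at an unadjusted p under 0.05 (8.59%), and DESeq2 called 0. The estimate for Ube2l6 was 0.95 ± 0.42 with an interval from 0.05 to 1.84 before adjustment, and 0.73 ± 0.42 (adjusted p = 0.924) without the low-Ly6c2 library, where 0 of 5 passed (0.0122% of all genes).

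Without treatment, compartments differed for 2 of the 5 genes in PMN-MDSC, where 59.1% of all genes differed. Uba7 was 2.32-fold lower in tumor than in spleen (-1.21 ± 0.25, adjusted p = 0.00183) and Usp18 2.86-fold lower (-1.52 ± 0.28, adjusted p = 0.000925), with all 4 tumor libraries below all 4 spleen libraries. Isg15 (0.10 ± 0.37), Ube2l6 (-0.41 ± 0.21) and Herc6 (-0.32 ± 0.29) overlapped and did not pass. In M-MDSC only Isg15 was called, 2.04-fold higher in tumor (1.03 ± 0.26, adjusted p = 0.0113; 28.4% of all genes), with every tumor library at or above 20.2 CPM and every spleen library at or below 18.99 CPM. The gap between these libraries is small, and a fit over all libraries gave an adjusted p of 0.134. On library totals, which move the median of all genes by 0.14 (PMN-MDSC) and -0.26 (M-MDSC), Usp18 was also called in M-MDSC, lower in tumor (-0.51, adjusted p = 0.0329).

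After treatment all 5 genes were lower in PMN-MDSC from tumor than from spleen, beside 53.6% of all genes that differed in either direction. Usp18 was 4.18-fold lower (-2.06 ± 0.47, adjusted p = 0.00604), Ube2l6 3.08-fold (-1.62 ± 0.28, adjusted p = 0.00154) and Uba7 2.84-fold (-1.504 ± 0.24, adjusted p = 0.00105), without overlap, although for Usp18 the highest tumor and the lowest spleen library were nearly equal (265 and 266 CPM). Isg15 (2.69-fold, adjusted p = 0.0153) and Herc6 (3.29-fold, adjusted p = 0.0157) overlapped, since the lowest spleen library reached into the tumor range. Without the spleen library at 334 CPM of Isg15, these 2 missed the threshold (0.0593 and 0.0646). Library totals move the median of all genes by 0.45 here, and all 5 calls stood. Marker sums differed between these groups too. Neutrophil markers were 30803 to 54171 CPM in treated PMN-MDSC from spleen and 4146 to 11186 CPM in those from tumor. Macrophage markers were 51.1 to 108 CPM in spleen and 2869 to 5932 CPM in tumor. The part of these markers in the 5 calls was not tested. In M-MDSC the 5 estimates were also negative, from -0.74 (Herc6) to -1.25 (Usp18), but 0 of 5 passed in edgeR (5.87% of all genes), with 3 of 5 at an unadjusted p under 0.05 (23.3%). DESeq2 called Uba7 and Ube2l6 lower there, beside 12.5% of all genes in either direction. Without the low-Ly6c2 library the estimates were -0.49 to -0.88, and 0 of 5 passed in edgeR (4.33% of all genes).

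PMN-MDSC and M-MDSC of the untreated spleen differed for 4 of the 5 genes (64.4% of all genes). On TMM-scaled counts Isg15 was 2.12-fold (1.08 ± 0.35, adjusted p = 0.0198), Uba7 2.21-fold (1.15 ± 0.22, adjusted p = 0.00154) and Usp18 1.41-fold (0.49 ± 0.16, adjusted p = 0.0206) higher in PMN-MDSC, and Ube2l6 was 1.54-fold lower (-0.63 ± 0.16, adjusted p = 0.00682). These values depend on the scaling, because library totals move the median of all genes by -0.38. On that scale Usp18 (0.10, adjusted p = 0.57) and Isg15 (0.69, adjusted p = 0.0842) were not called, and in CPM Usp18 was 37.8 ± 5.43 in PMN-MDSC and 34.95 ± 3.01 in M-MDSC (SD, n = 4 each). The Isg15 call was also lost without the M-MDSC library at 12.002 or 13.1 CPM (0.0581 and 0.0693), and the Usp18 call without the M-MDSC library at 31.6 or 34.5 CPM or the PMN-MDSC library at 45.4 CPM (0.0501 to 0.0703). The Ube2l6 call was lost without the filter on low counts (adjusted p = 0.0502) and in the fit over all libraries (-0.44, adjusted p = 0.184), as was that of Usp18 (0.0664 and 0.208). In untreated tumor 0 of 5 passed in edgeR (13.0% of all genes), with 2 of 5 at an unadjusted p under 0.05 (27.7%), and DESeq2 called 0. Ube2l6 (-0.74 ± 0.29) was called without the M-MDSC library at 11.3 CPM (0.0289), and Usp18 (-0.72 ± 0.29) without the PMN-MDSC library at 23.05 CPM (0.0274).

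In the treated spleen 3 of 5 genes were called higher in PMN-MDSC (61.2% of all genes differed): Uba7 (1.74-fold, adjusted p = 0.0316), Herc6 (2.52-fold, adjusted p = 0.018) and Usp18 (2.15-fold, adjusted p = 0.0326). The libraries of all 5 genes overlapped. On library totals, which move the median of all genes by -0.58, 0 of 5 were called, and leaving out 1 library gave 0 to 5. Without the PMN-MDSC library at 334 CPM of Isg15, 0 were called, and Uba7 and Usp18 were each lost in 5 of the 7 such fits (adjusted p up to 0.0967 and 0.12). Without the PMN-MDSC library at 145 CPM or the M-MDSC library at 387 CPM of Isg15, all 5 were called. In the treated tumor 0 of 5 passed in edgeR (0.380%), 0 had an unadjusted p under 0.05 (12.9%), and DESeq2 called 0. The estimates there ran from 0.08 to 0.39. Without the low-Ly6c2 library they ran from -0.15 to 0.14, and 0 of 5 passed in edgeR (0.0231% of all genes). These comparisons reuse the libraries of the treatment comparisons and are not independent of them.

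Bulk tumor of untreated mice stood apart for the modifier and its E1. Isg15 was 0.661, 2.39, 2.48 and 4.24 CPM, from 5 to 37 counts, and Uba7 was 13.0, 18.6, 24.1 and 26.2 CPM. Isg15 was 14.96-fold lower than in PMN-MDSC from tumor (log2 -3.90 ± 0.43) and 12.2-fold lower than in M-MDSC (log2 -3.61 ± 0.44; adjusted p = 9.35e-06 and 1.98e-05), without overlap. Uba7 was 3.78-fold and 3.36-fold lower (adjusted p = 8.08e-06 and 8.63e-05). The remaining 3 genes overlapped with both MDSC types. Ube2l6 was 7.80, 13.95, 17.8 and 21.1 CPM in bulk tumor, Herc6 was 18.2, 41.3, 52.5 and 70.3 CPM and Usp18 was 7.27, 18.3, 22.5 and 43.0 CPM. Thus 2 of 5 genes were called in each comparison, where 69.5% (PMN-MDSC) and 69.2% (M-MDSC) of all genes were. Herc6 was called higher in bulk tumor than in PMN-MDSC without the bulk library that had the lowest value of every ISG15 gene (adjusted p = 0.013), and also with all libraries when the filter on low counts was dropped (0.81, adjusted p = 0.00203). Ube2l6 was called lower than in M-MDSC without the M-MDSC library at 11.3 CPM (adjusted p = 0.0195) and in the fit over all libraries (-0.64, adjusted p = 0.046). Library totals move the median of all genes by 0.29 and 0.19. Bulk tumor held Ly6g at 0 in all 4 libraries, 4923 to 6690 CPM of the epithelial markers and 847 to 1104 CPM of the fibroblast markers.

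Levels of different genes were compared as CPM per kilobase, with the union of all annotated exons of a gene as its length. The order depends on these lengths. In mean CPM, Uba7 lay above Isg15 in untreated PMN-MDSC (131 against 25.5) and untreated M-MDSC (77.2 against 15.7) from spleen. Isg15 was first of the 5 in every MDSC group, with 20.7 ± 4.804 CPM per kb in untreated M-MDSC from spleen and 340 ± 131 in treated PMN-MDSC from spleen (SD, n = 4 and 3). Herc6 was last in every MDSC group, at 2.69 to 27.2 on average. The genes between them changed places. Usp18 followed Isg15 in all 4 treated groups (47.3 to 169 CPM per kb) but ranked lower in the untreated ones (5.25 to 13.5), while Uba7 followed Isg15 in untreated PMN-MDSC from spleen and tumor and ranked just above Herc6 in all treated groups. In untreated M-MDSC from tumor Ube2l6 (11.02), Uba7 (8.89) and Usp18 (8.73) were within their spread, and their order differed between libraries. Bulk tumor had another order, with Usp18 (8.16) and Ube2l6 (7.59) first and Isg15 (3.23) and Uba7 (3.06) last, and neighbours again overlapped.

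The share of Isg15 relative to each other gene was tested as the log2 ratio of their counts per kb, for 16 ratios with two-sided exact permutation tests. The ratio of Isg15 to Uba7 was higher in treated libraries without overlap in 3 populations. It went from 1.66 to 9.30 in PMN-MDSC from spleen (exact p = 0.0571), from 1.78 to 10.1 in M-MDSC from spleen and from 4.07 to 9.65 in PMN-MDSC from tumor (exact p = 0.0286 each). In M-MDSC from spleen the ratios to Ube2l6 (1.28 to 4.52), Herc6 (4.22 to 18.4) and Usp18 (1.64 to 2.65) were also higher, again with exact p = 0.0286 and no overlap. In PMN-MDSC the ratio of Isg15 to Ube2l6 was 3.96 untreated and 4.35 treated in spleen and 5.76 and 5.12 in tumor, with overlap. The ratio to Usp18 in PMN-MDSC from tumor was lower in treated libraries (7.56 to 3.28, exact p = 0.114), with overlap. The smallest p these group sizes allow is 0.0286 for 4 against 4 and 0.0571 for 3 against 4. Over 16 such tests no ratio could pass after adjustment, since the smallest adjusted p they allow is 0.0571 (smallest found 0.0914). In total 6 of 16 ratios did not overlap, or 9 without the low-Ly6c2 library, and no share over all genes was computed for ratios. A ratio shows unequal change between 2 genes, not which of them changed.

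**Figure D3:**
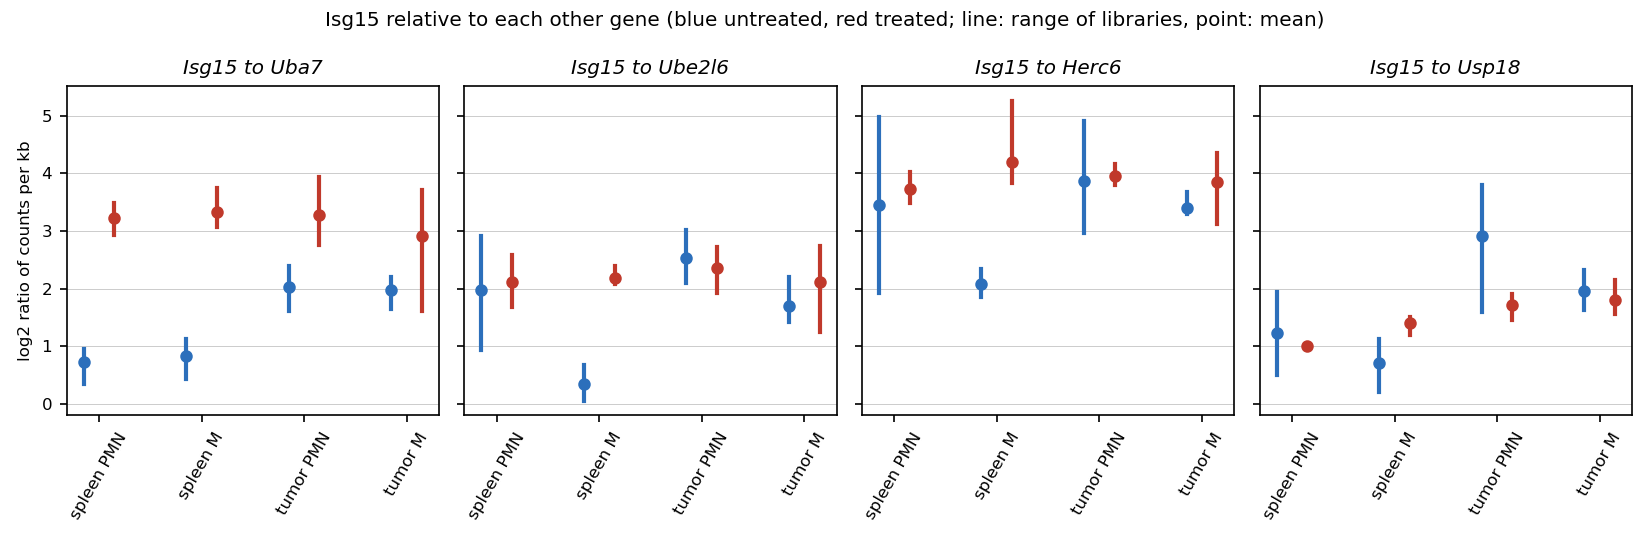
Log2 ratio of Isg15 to each other gene (counts per kb) in untreated (blue) and treated (red) libraries; lines span the libraries and points are means. The ratio to Uba7 separates by treatment in both spleen populations and in PMN-MDSC from tumor, and in M-MDSC from spleen all 4 ratios do.

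Across the 34 libraries the 5 genes followed each other, with Pearson's r of log2(CPM + 1) from 0.59 (Uba7 and Herc6) to 0.94 (Ube2l6 and Usp18) over the 10 pairs. These libraries share treatment, cell type and depth differences, and no test was made. After subtracting group means the 10 values ran from 0.24 (Uba7 and Herc6) to 0.72 (Isg15 and Uba7). The genes closest to the mean standardized profile of the 5, among 9794 genes with at least 25 counts on average, were Ifit1bl1 (r = 0.97), Ifit1, Parp9, Ifit2, Ifit3 (each 0.95), Ddx58, Xaf1, H2-T22, Ifi208 and Helz2 (0.94 to 0.93). The Ifit genes encode RNA-binding antiviral proteins, and Ddx58 encodes the cytosolic RNA sensor RIG-I.

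Lists of related genes were counted in the same 4 treatment comparisons. Of 20 other interferon-stimulated genes, 19, 20, 20 and 11 rose in spleen PMN-MDSC, spleen M-MDSC, tumor PMN-MDSC and tumor M-MDSC, in this order. Their median log2 differences were 3.09, 2.12, 2.52 and 1.55, beside medians of 3.52, 2.16, 2.08 and 1.36 for the 5 ISG15 genes and of 0.014, -0.012, 0.006 and -0.001 for all genes tested. Ifit2 rose in all 4 (2.74 to 5.58), as did Bst2, which encodes tetherin (2.04 to 3.16), and Ifi44 (3.53 to 7.14, the highest value against a mean of 0.39 CPM in untreated PMN-MDSC from spleen). The counts and values for tumor M-MDSC in these lists include the low-Ly6c2 library. Without it 19 of these 20 genes rose there (median 1.88, beside 1.63 for the 5 ISG15 genes and -0.019 for all genes tested, of which 2.82% rose).

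Enzymes of ubiquitin and the other ubiquitin-like proteins were counted in the same order of populations. Of all genes, 6.10%, 10.7%, 2.29% and 1.82% were called higher, and 11.6%, 19.6%, 3.36% and 2.88% in either direction. The small lists allow no statement about them from their counts. Of the E1 enzymes other than Uba7, 8 of 9 were tested and 0, 1, 0 and 0 rose, with medians of -0.017, 0.055, -0.001 and -0.014. The exception was Uba1, the main ubiquitin E1, in M-MDSC from spleen (0.56, adjusted p = 0.0266). Uba6 did not pass in any population (-0.65 to -0.02). Of 9 tested E2 enzymes of other systems, 0, 1, 0 and 0 rose (Ube2m in M-MDSC from spleen, 0.48, adjusted p = 0.033). Ube2l3, the ubiquitin E2 most similar to Ube2l6, was 35.9 to 41.8 CPM in untreated and 46.1 to 55.8 CPM in treated PMN-MDSC from spleen (0.64, adjusted p = 0.0552) and between 0.06 and 0.14 on the log2 scale elsewhere. Among all 25 or 26 tested genes with symbols starting Ube2 other than Ube2l6, 0, 2, 0 and 0 rose and 1, 0, 0 and 0 fell, the last being Ube2o in PMN-MDSC from spleen, where it fell by 1.69 on the log2 scale (adjusted p = 0.00924).

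The 4 relatives of the ligase gene, Herc1 to Herc4, were all tested, and none rose. Herc4 (-0.74, adjusted p = 0.00286) and Herc2 (-0.35, adjusted p = 0.0402) fell in M-MDSC from spleen, where 19.6% of all genes were called in either direction. The medians of the 4 were -0.26, -0.33, -0.19 and -0.14. Of 28 to 35 tested genes of the USP family other than Usp18, 1, 1, 0 and 0 rose and 2, 2, 0 and 0 fell. Beside them, 11.6%, 19.6%, 3.36% and 2.88% of all genes were called in either direction. Usp25 was the one that rose, in both spleen populations (1.19 in PMN-MDSC and 0.69 in M-MDSC, adjusted p = 0.0101 and 0.00228). Usp12 (-1.20) and Usp48 (-0.88) fell in PMN-MDSC from spleen. Proteases of SUMO, NEDD8 and UFM1 (8 of 10 tested) gave 0, 2, 0 and 0 rises, those of Cops5 (0.49) and Ufsp2 (0.44).

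Accessory genes of ISG15, such as the interacting deubiquitinases, the ligase gene Trim25 and the receptor gene Ifnar2, were counted too. Of 10, 12, 13 and 13 tested, 1, 3, 1 and 0 rose. Stat2, which encodes the factor that holds USP18 at the receptor, rose in both spleen populations (2.67 and 1.47) and in PMN-MDSC from tumor (1.42), and Trim25 (0.84) and Sqstm1 (0.77) rose in M-MDSC from spleen. Of the genes for reported ISG15 substrates, 4, 7, 4 and 1 rose of 15 or 16 tested, and 1 fell, in PMN-MDSC from spleen. Those with the smallest adjusted p, Ddx58 (1.51 to 1.98), Ifih1 and Mx1, also belong to the list of other interferon-stimulated genes. Of 12 interferon signalling genes 3, 4, 3 and 1 rose, among them Irf7, the master regulator of type I interferon genes, in all 4 populations (2.75 to 3.88). Without the low-Ly6c2 library, 1 of 11 tested accessory genes (Stat2), 3 of 16 substrate genes (Ddx58, Ifih1 and Mx1) and 2 of 12 signalling genes (Irf7 and Stat2) rose in tumor M-MDSC, and none of the E1, E2, HERC, USP, protease or modifier lists held a call. Modifiers other than ISG15 gave 2, 3, 0 and 0 rises of 8 to 11 tested, with the polyubiquitin gene Ubb in both spleen populations (0.96 and 0.60).

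**Figure D4:**
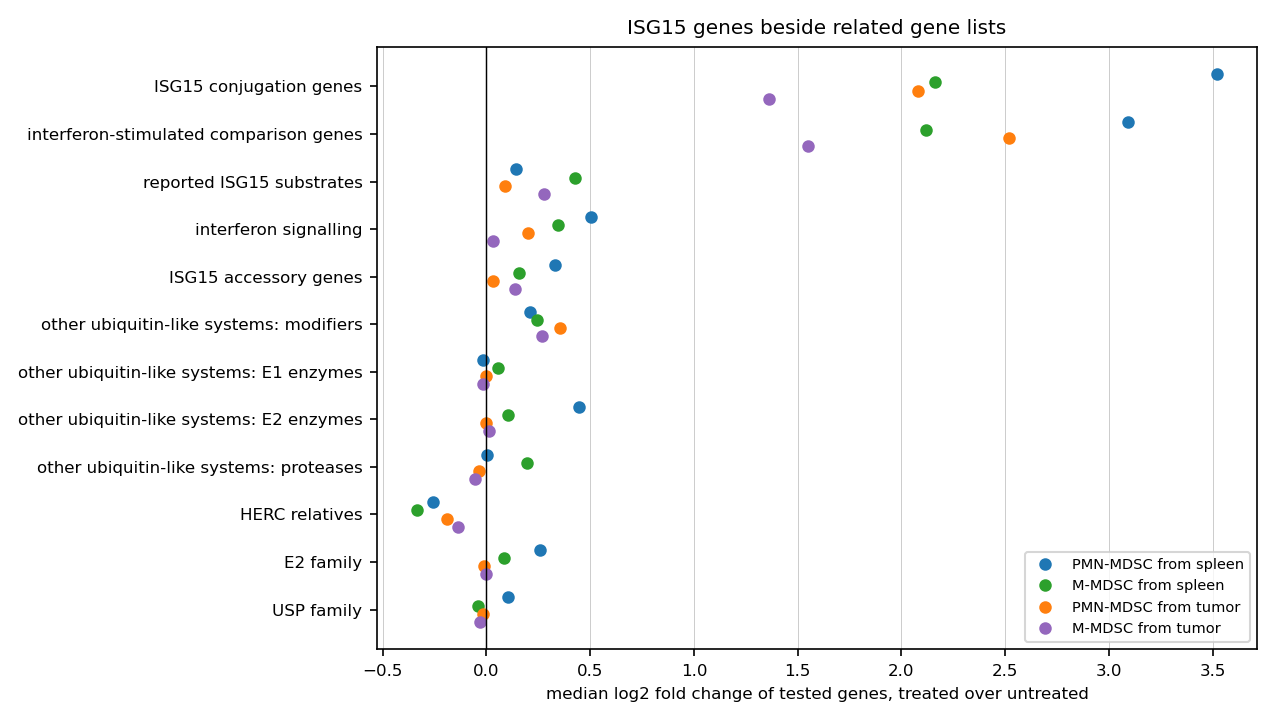
Median log2 fold change of the tested genes of each list (x axis) in the 4 populations, treated over untreated. The ISG15 genes (1.36 to 3.52) and the other interferon-stimulated genes (1.55 to 3.09) lie apart from the remaining lists, which run from -0.33 to 0.50.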

How the data were processed

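Read counts per gene of 35 libraries were taken as the authors deposited them. Per the study's methods and the submitters' processing notes, the authors mapped reads to GRCm38 with ContextMap and BWA and counted fragments per strand with featureCounts (Subread 1.4.6-p3) on Gencode v16 annotation. The Takara Pico kit used ribosomal depletion and total RNA.

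A library with 10 counts was left out, leaving 34, with 793070 to 8886115 counts. Genes averaging at least 25 counts in the libraries compared were tested with edgeR 4.0.16 (quasi-likelihood, robust, TMM, Benjamini-Hochberg adjustment) in R 4.3.3, only the compared groups entering a fit. CPM uses library totals. Ratios, with 0.5 counts added, were tested by exact permutation with SciPy 1.17.1. The alternatives were DESeq2 1.42.0, RLE size factors, no filter, 1 fit over all libraries and leaving out each library. As a further alternative, the study's thresholds (adjusted p under 0.001, 2-fold) were applied to the main edgeR fit. Chosen after seeing the data were library totals without TMM and the gene lists in tumor M-MDSC without the low-Ly6c2 library. The fit was tested on simulated data.

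The members and gene lists were chosen with earlier results of these data known. Named genes are the members, the 3 genes of each list with the smallest adjusted p, close relatives, and the 10 genes closest in pattern. Replicates are separate samples by their labels, so p-values measure the spread between these samples. No pair of libraries was identical. Gene positions and lengths are from GENCODE M21, promoters from RefSeq. Some alleles and genes are not reported here.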

Additional observations from a re-analysis of the deposited data

Results flagged for a closer look

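Usp18 in treated M-MDSC from spleen had 1 library at 504.2 CPM, where the next was 292.7 CPM. Its gap to the next library was 0.852 of the group's range, above Dixon's 95% critical value for 4 samples. Of 35 groups of 4 libraries examined, 1 stood out, and chance gives about 1 in 20.

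The treatment effect differed between PMN-MDSC and M-MDSC from spleen for Ube2l6, by 1.44 on the log2 scale (edgeR interaction, adjusted p = 0.0122). Herc6 also differed, by 1.74 (adjusted p = 0.032). The Herc6 call was lost in 11 of the edgeR fits that left out 1 library (adjusted p 0.0512 to 0.0834). In this comparison 10.9% of all genes were called.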

How the results depend on the processing

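No paired analysis was possible because the columns of the count table carry no mouse numbers. The sample titles do carry numbers, but linking them to the columns would rest on their order, and such a pairing was not tested. Counts of the 5 genes called were compared with the main count. Percentages are the shares of all genes called in either direction by the same fit. For treatment in tumor M-MDSC (0), DESeq2 (9.53%), no filter (4.10%), the fit over all libraries (8.11%) and library totals (3.70%) each gave 5. The tumor-spleen interaction in PMN-MDSC (0) gave 1 with DESeq2, 1 with RLE and 2 without filter, and in M-MDSC (0) it gave 1 with DESeq2 and 1 without filter. The cell type interaction in spleen (2) gave 1 in the fit over all libraries (13.1%) and 1 on library totals (14.2%). Tumor against spleen in untreated M-MDSC (1) gave 0 in the fit over all libraries (21.6%) and 2 on library totals (37.3%). In treated M-MDSC (0) it gave 2 with DESeq2 (12.5%), 3 without filter (7.22%) and 2 in the fit over all libraries (15.4%). PMN-MDSC against M-MDSC in untreated spleen (4) gave 2 without filter (26.4%), in the fit over all libraries (56.2%) and on library totals (67.8%). In treated spleen (3) it gave 0 on library totals (63.4%). The study's thresholds were applied to the edgeR values, whereas the study used them with DESeq2. Treatment in PMN-MDSC from spleen and from tumor (5 each) then gave 1 each (0.0413% and 0.241% of all genes called higher). Untreated PMN-MDSC between sites (2) gave 1. The count was 0 for the cell type interaction in spleen (2) and for untreated M-MDSC (1) and treated PMN-MDSC (5) between sites. It was also 0 for PMN-MDSC against M-MDSC in untreated (4) and treated (3) spleen. Shares of all genes are not given for the other counts at these thresholds. The median correlation between the genes (0.845) was 0.648 after subtracting group means. The causes were not tested.

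Leaving out 1 library gave 3 to 5 calls for treatment in tumor PMN-MDSC, 0 to 4 in tumor M-MDSC, 0 to 1 for the PMN-MDSC tumor-spleen interaction, 1 to 2 for the cell type interaction in spleen, 3 to 5 for treated PMN-MDSC between sites, and 2 to 4, 0 to 1 and 0 to 5 for PMN-MDSC against M-MDSC in untreated spleen, untreated tumor and treated spleen. The ratio count was 6 to 9. Beyond the low-Ly6c2 library, shares of all genes are not given for fits that left out 1 library.

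Signs turned only for estimates that had not passed. The cell type interaction in tumor was 0.0042 for Uba7 without filter and -0.0487 for Isg15 on library totals. Isg15 between sites in untreated PMN-MDSC was -0.0682 in the fit over all libraries, Uba7 between treated tumor cell types was -0.0219 on library totals, and Ube2l6 in bulk tumor against PMN-MDSC was 0.14 without filter, 0.12 in the fit over all libraries and 0.20 on library totals. With 1 library left out, the cell type interaction ranged in spleen from -0.63 to 0.0709 (Isg15) and -0.45 to 0.0001 (Uba7), and in tumor from -0.38 to 0.42 (Isg15) and -0.0977 to 0.0918 (Uba7). Between sites, Isg15 ranged from -0.14 to 0.45 in untreated PMN-MDSC and Uba7 from -0.20 to 0.0047 in untreated M-MDSC. Between tumor cell types, Uba7 untreated ranged from -0.0021 to 0.21, and treated Isg15 from -0.15 to 0.63, Ube2l6 from -0.01 to 0.40, Herc6 from -0.0421 to 0.69 and Usp18 from -0.20 to 0.66. Against PMN-MDSC, bulk tumor Ube2l6 ranged from -0.26 to 0.16 and Usp18 from -0.15 to 0.68, and Usp18 against M-MDSC from -0.81 to 0.11. Log2 ratios of Isg15 in PMN-MDSC from spleen ranged from -0.21 to 0.45 (Ube2l6), -0.23 to 0.79 (Herc6) and -0.45 to 0.0242 (Usp18), and in PMN-MDSC from tumor from -0.20 to 0.44 (Herc6). No ratio could pass its exact test after adjustment. Low counts limit Isg15 in bulk tumor (5 to 37). They also limit untreated PMN-MDSC from tumor, with 19 to 31 counts of Ube2l6 and 20 to 38 of Usp18. In untreated M-MDSC from tumor Ube2l6 held 9 to 73 counts, and the library at 11.3 CPM of Ube2l6 is the one with 9.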
